A study of Mus musculus with 3 samples.

Results

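Chaperones are proteins that help other proteins fold and keep them from clumping. The set described here has 34 genes of this kind in mouse skin, chosen from a list of symbols and matched by symbol among the 28693 genes of the count matrices. All 34 were found. Of these, 15 act in the cytosol and nucleus or, for the pair Hspd1 and Hspe1, in mitochondria, and 19 act in or signal from the endoplasmic reticulum (ER). Hspa1a, Hspa1b, Hspa8, Hspa4, Hsph1, Hsp90aa1, Hsp90ab1, Hspb1, Hspb8, Dnaja1, Dnajb1, Dnajb4 and Bag3 made up the cytosolic side, here called cytosolic members together with the mitochondrial pair. Hspa5, Hsp90b1, Hyou1, Dnajb9, Dnajb11, Dnajc3, Calr, Canx, Pdia3, Pdia4, Pdia6, P4hb, Sdf2l1, Manf, Creld2, Herpud1, Sel1l, Ddit3 and Xbp1 were the ER members.

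Cells run separate programmes for unfolded proteins in these compartments. In the cytosol, heat shock factor binds repeated short heat shock elements in DNA and raises the Hsp70, Hsp90, Hsp110, small heat shock protein and J protein genes after heat, oxidative or mechanical stress. In the ER, the sensors IRE1, PERK and ATF6 answer unfolded secretory proteins, and their transcription factors raise the ER chaperones through ER stress elements. In skin, keratinocytes carry abundant small heat shock protein, while fibroblasts and sebaceous cells hold much ER, since the former secrete collagen and the latter make lipid.

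The study measured RNA in single cells of abdominal skin dermis with droplet 3' libraries carrying unique molecular identifiers (UMIs). There was 1 library from a mouse state that was not pregnant (NP), 1 from gestation day 16 (dpc16) and 1 from day 42 postpartum (dpp42). All 3 came from C57BL/6 mice of 8 to 12 weeks with the genotype Col1a2creERT2; R26H2B EGFP, in which the collagen gene Col1a2's promoter, active mainly in fibroblasts, drives a tamoxifen-dependent Cre and the Rosa26 locus carries a green histone reporter. Tamoxifen was given to all groups, on 3 days with harvest 48 days later in NP, and during pregnancy in dpc16 and dpp42, so time since tamoxifen differs between groups and cannot be told apart from pregnancy. How many animals each library held is not given in the sources used here. With 1 library per state no difference has a replicate check and no test was run. Each ratio is printed with an exact 95% interval that covers counting error only, and differences in handling between the libraries cannot be told apart from differences between states.

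Cells were kept with at least 200 genes and at most 10% mitochondrial UMIs, which left 1289 of 1330 NP barcodes, 3652 of 4122 from dpc16 and 1081 of 1196 from dpp42. Median depth was 3119, 4300.5 and 3252 UMIs per kept cell, and the shallowest dpc16 barcode had 2494 UMIs against 1916 in NP and 1908 in dpp42. Between 1 and 6 kept barcodes were shared by any pair of libraries. The mix of cells differed as well. Levels are given as CPM, the UMIs of a gene per 1000000 UMIs. Summed fibroblast markers stood at 3356, 25105 and 3534 CPM in NP, dpc16 and dpp42, and keratinocyte markers at 39674, 19508 and 34809, so dermal libraries held many epidermal cells. For that reason levels are given first over all cells and then within classes. A member counted as measured when it reached 10 CPM in either library of a pair and 20 UMIs over both. It was called higher or lower when its ratio was at least 1.5 in either direction and its interval excluded 1.

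The upstream DNA of these genes differed between the 2 groups. RefSeq promoters (build GRCm38.p6, 250 bases before each start) were matched for 29 members. Hsp90aa1, Hsp90ab1, Hspa8, Hyou1 and Manf had no entry and are missing from each motif count. A pair of inverted heat shock units, GAANNTTC or TTCNNGAA on either strand, was present for 8 of 12 cytosolic genes, 0 of 17 ER genes and 14.5% of all 27025 genes in the table. An ER stress element, CCAAT followed by 9 bases of any kind and CCACG on either strand, was present for 7 of 17 ER genes, 0 of 12 cytosolic genes and 0.130% of all genes. This element holds a CCAAT box by construction, and the box alone was present in 16 of 17 ER genes, 5 of 12 cytosolic genes and 37.5% of all genes. A few cytosolic promoters with inverted units and 4 ER promoters with an element are printed 5' to 3', each ending at the RefSeq start, with matched units or elements in capitals. Hspa1a and Hspa1b are shown because their RNA differed while their promoters hardly do, and Hspe1 because its window, shared with Hspd1 on the other strand, holds 2 overlapping matches to 3 alternating units, a pattern found in 0.514% of genes.
Hspa1a, chr17:34972157-34972276, minus strand: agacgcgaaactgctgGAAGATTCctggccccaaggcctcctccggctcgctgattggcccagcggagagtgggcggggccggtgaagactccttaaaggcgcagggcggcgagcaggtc
Hspa1b, chr17:34959239-34959358, minus strand: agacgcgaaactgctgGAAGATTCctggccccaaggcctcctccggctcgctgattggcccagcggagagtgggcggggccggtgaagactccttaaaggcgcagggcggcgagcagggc
Hspb1, chr5:135887799-135887918, plus strand: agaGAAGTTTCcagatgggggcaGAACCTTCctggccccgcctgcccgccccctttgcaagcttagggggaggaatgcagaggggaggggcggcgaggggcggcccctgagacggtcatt
Hspe1, chr1:55088028-55088147, plus strand: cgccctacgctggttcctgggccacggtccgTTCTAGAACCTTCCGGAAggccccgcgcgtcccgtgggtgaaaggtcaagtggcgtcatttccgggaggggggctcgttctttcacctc
Hspa5, chr2:34771970-34772089, plus strand: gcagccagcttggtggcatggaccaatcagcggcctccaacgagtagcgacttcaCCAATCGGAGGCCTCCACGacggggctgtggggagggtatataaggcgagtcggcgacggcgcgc
Dnajc3, chr14:118937812-118937931, plus strand: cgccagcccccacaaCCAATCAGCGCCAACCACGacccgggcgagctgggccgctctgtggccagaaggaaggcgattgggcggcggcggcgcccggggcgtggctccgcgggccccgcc
Pdia6, chr12:17266469-17266588, plus strand: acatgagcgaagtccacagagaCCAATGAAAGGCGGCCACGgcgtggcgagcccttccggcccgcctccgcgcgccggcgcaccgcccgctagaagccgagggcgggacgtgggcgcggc
Hsp90b1, chr10:86705445-86705694, minus strand: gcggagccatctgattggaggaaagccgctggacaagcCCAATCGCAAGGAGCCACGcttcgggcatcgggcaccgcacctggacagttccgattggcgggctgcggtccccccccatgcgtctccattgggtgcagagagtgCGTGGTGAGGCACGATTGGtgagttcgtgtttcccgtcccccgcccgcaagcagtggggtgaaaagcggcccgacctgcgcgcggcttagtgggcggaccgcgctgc
The full 250-base windows of Hspa1a and Hspa1b were identical at 247 positions. In Hsp90b1 the capitals mark 2 elements on opposite strands. Calr, Canx and Creld2 also held 1 element each. Bag3, Dnajb1, Hspa4 and Hspb8 held no inverted pair in this window, and a match is a description of letters, not of a factor bound there.

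Across all kept cells the cytosolic members were higher together in dpc16 and the ER members were not. Summed over the 15 cytosolic members, levels were 8579.7, 17947 and 9067 CPM in NP, dpc16 and dpp42, a dpc16 to NP ratio of 2.09 (2.07 to 2.11) and a dpp42 to NP ratio of 1.06 (1.04 to 1.07). Summed over the 19 ER members, levels were 2684, 2702 and 2463 CPM, with ratios of 1.01 (0.989 to 1.02) and 0.918 (0.897 to 0.939). Between dpc16 and NP, 10 of 15 cytosolic members were higher and 0 were lower, against 14.6% and 21.2% of all 8538 measured genes. Of the 19 ER members, 2 were higher and 2 lower in the same comparison. The median log2 ratio was 0.70 for cytosolic members, 0.09 for ER members and -0.14 for all measured genes. Over the alternative settings it ran from 0.46 to 1.05 for cytosolic and from -0.33 to 0.27 for ER members. Fewer cytosolic members were called higher with classes weighted equally. Hspa1a alone made up 31.2% of the cytosolic rise, followed by Hsp90aa1 with 17.1%, Hspa8 with 15.9% and Hspb1 with 13.3%.

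**Figure D1:**
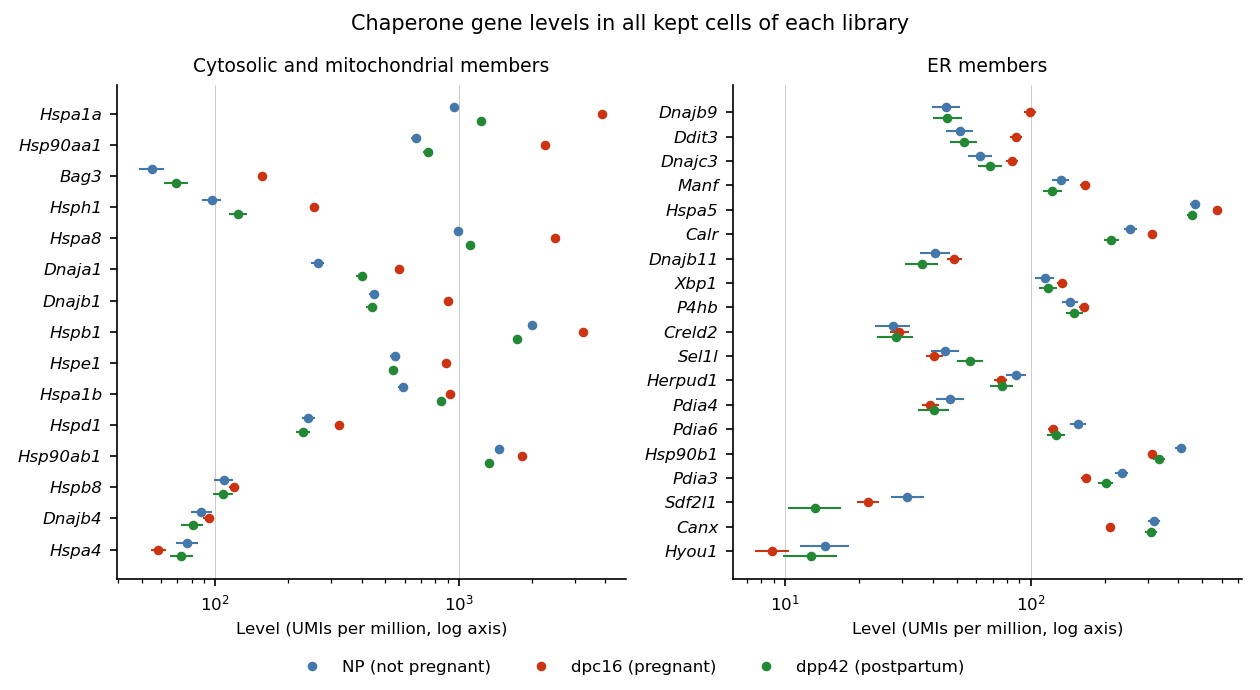
Level of each of the 34 genes in CPM on a log axis, over all kept cells of the NP, dpc16 and dpp42 libraries, with genes ordered by their dpc16 to NP ratio and bars for the exact 95% counting interval. The dpc16 points lie to the right of both others for the upper cytosolic genes, Hspa1a reaching 3878 against 958 and 1239, while ER points lie close together.

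Hspa1a (chr17:34969190-34972156) and Hspa1b (chr17:34956436-34959238) lie side by side on the minus strand of GRCm38. Among the Hsp70 genes, the stress-inducible Hspa1a stood at 958, 3878 and 1239 CPM in NP, dpc16 and dpp42, a dpc16 to NP ratio of 4.05 (3.94 to 4.16). Its neighbour and near copy Hspa1b stood at 590.3, 919.6 and 848 CPM, a ratio of 1.56 (1.502 to 1.62). Both were called higher in dpc16, but Hspa1b was about as high in dpp42, where Hspa1a was not. Hspa1a thus had 1.6, 4.2 and 1.5 UMIs per UMI of Hspa1b. The last 500 bases of the Hspa1a transcript, where 3' reads fall, shared 0% of their 30-base words with other genes and those of Hspa1b 3.18%, although 64.1% of the whole Hspa1a transcript's words occur in Hspa1b. Reads from further upstream could therefore be hard to place, and how the counting treated them was not tested. The constitutive Hspa8, which folds new chains and uncoats vesicles, stood at 989, 2475 and 1114 CPM with a ratio of 2.502 (2.44 to 2.57). Its value is uncertain because 85.6% of the words in its transcript end occur in other genes. Hspa4, an Hsp110-type exchange factor for Hsp70, stood at 76.9, 58.5 and 72.7 CPM and, with a ratio of 0.762 (0.683 to 0.851), was neither higher nor lower. The stress-inducible Hsp110 gene Hsph1 stood at 96.9, 254 and 124 CPM, a ratio of 2.62 (2.40 to 2.86).

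The inducible and constitutive Hsp90 genes parted. Hsp90aa1, the inducible form, stood at 666, 2267 and 745 CPM with a ratio of 3.40 (3.29 to 3.52). Hsp90ab1, the constitutive form, stood at 1461, 1815 and 1327 CPM, and its ratio of 1.24 (1.21 to 1.27) did not reach the fold used. Hspb1, a small heat shock protein that holds unfolded chains and binds actin, stood at 1990.3, 3237 and 1732 CPM with a ratio of 1.63 (1.59 to 1.66). The other small heat shock protein, Hspb8, which works with Bag3 in selective autophagy, stood at 109, 119 and 108 CPM and was called in neither direction.

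J proteins deliver clients to Hsp70 and start its cycle. Dnajb1, the main stress-inducible one, stood at 448, 902 and 439 CPM with a ratio of 2.01 (1.93 to 2.10). Dnaja1 stood at 264, 566 and 400.2 CPM with a ratio of 2.15 (2.04 to 2.26), and was the 1 cytosolic member also higher in dpp42 than in NP, with a ratio of 1.52 (1.42 to 1.62). Dnajb4 stood at 87.9, 94.1 and 80.8 CPM and was called in neither direction. Bag3, the inducible Hsp70 cochaperone, stood at 55.0, 156 and 69.0 CPM with a ratio of 2.84 (2.53 to 3.19). With classes weighted equally the log2 ratio of Bag3 was 0.46, short of the fold. In mitochondria, Hspe1 (Hsp10) stood at 547, 883 and 539 CPM, a ratio of 1.61 (1.55 to 1.68), and its partner Hspd1 (Hsp60) at 241, 322 and 229 CPM, a ratio of 1.34 (1.26 to 1.42). The Hspe1 value is uncertain, since 69.9% of its transcript end is shared with other genes. So the genes past the fold were Hspa1a, Hspa1b, Hspa8, Hsp90aa1, Hsph1, Hspb1, Dnajb1, Dnaja1, Bag3 and Hspe1. The 5 called in neither direction were Hsp90ab1, Hspa4, Hspb8, Dnajb4 and Hspd1.

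The ER members moved apart from one another rather than as a group. Hspa5 (BiP, chr2:34771970-34777547, plus strand), the ER's Hsp70 and the regulator of its stress sensors, stood at 467, 574 and 455 CPM, a dpc16 to NP ratio of 1.23 (1.18 to 1.28). Hsp90b1 (GRP94), the ER's Hsp90, stood at 409, 313 and 333 CPM, a ratio of 0.764 (0.729 to 0.801). Neither was called. Hyou1, the ER's Hsp110, was the lowest member with 14.6, 8.88 and 12.7 CPM and was lower in dpc16, at 0.610 (0.468 to 0.799) of its NP level.

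Of the ER J proteins, Dnajb9, which helps keep the sensor IRE1 off, stood at 45.2, 99.4 and 45.8 CPM and was higher in dpc16, with a ratio of 2.198 (1.93 to 2.51). Dnajc3, an inhibitor of the PERK branch's kinases, reached 1.35 (1.21 to 1.52), and Dnajb11, a BiP cofactor, 1.20 (1.04 to 1.39), both short of the fold. The stress transcription factor Ddit3 (CHOP) stood at 51.5, 87.5 and 53.6 CPM and was higher with 1.70 (1.503 to 1.93), but its log2 ratio was 0.06 with classes weighted equally. Xbp1, the target of IRE1 splicing, had a ratio of 1.17 (1.08 to 1.28). Spliced and unspliced Xbp1 cannot be separated in gene counts.

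The lectin chaperones of glycoproteins diverged. Canx (calnexin), in the ER membrane, stood at 319, 211 and 310.4 CPM and was lower in dpc16, at 0.663 (0.628 to 0.701) of NP. Calr (calreticulin), its soluble relative, stood at 254, 312 and 213 CPM with a ratio of 1.23 (1.16 to 1.30). The disulfide isomerases lay at 0.717 for Pdia3, 0.788 for Pdia6, 0.830 for Pdia4 and 1.14 for P4hb, none called. Among the remaining ER genes, the BiP-associated Sdf2l1 had a ratio of 0.691, the secreted stress protein Manf 1.26, the stress-induced Creld2 1.07, and the degradation factors Herpud1 and Sel1l 0.865 and 0.903. None of these passed the fold. Sdf2l1 was the 1 ER member called between dpp42 and NP, with 31.5, 21.8 and 13.3 CPM in the 3 libraries and a ratio of 0.421 (0.316 to 0.555).

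The dpp42 library lay near NP. In that comparison 1 of 15 cytosolic members was higher and 0 were lower, beside 7.61% and 2.66% of 8433 measured genes, and 0 of 19 ER members were higher and 1 was lower. Set against dpc16, where 23.5% of 8644 measured genes were higher in dpp42 and 11% lower, 8 cytosolic members were lower and 0 higher. Those 8 were Hspa1a, Hsp90aa1, Bag3, Hspa8, Dnajb1, Hsph1, Hspb1 and Hspe1, from 0.319 (0.312 to 0.328) for Hspa1a to 0.611 (0.587 to 0.635) for Hspe1. Hspa1b was not among them, at 0.922 (0.892 to 0.952). Of the ER members, Dnajb9, Sdf2l1 and Ddit3 were lower, at 0.461, 0.609 and 0.612. The 3 comparisons share libraries, so they are not separate evidence.

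Classes were built from clusters made without the 34 genes and named from marker lists. There were 5 classes with at least 15 cells in each library. They were keratinocyte-like with 867, 1347 and 576 cells in NP, dpc16 and dpp42, sebocyte-like with 105, 320 and 108, fibroblast-like with 97, 1076 and 111, blood endothelial-like with 41, 127 and 88, and lymphatic endothelial-like with 19, 141 and 34. Different clusters filled a class in different libraries. Clusters 7 and 5 held 274 and 211 of the NP keratinocyte-like cells, and clusters 2 and 0 held 261 and 260 of those in dpc16. Cluster 3 held 53 of the 97 NP fibroblast-like cells, and cluster 23 held 453 of 1076 in dpc16 and 62 of 111 in dpp42. In sebocyte-like cells cluster 13 was the largest in all 3 libraries. All 16 keratinocyte, 7 sebocyte, 9 fibroblast and 7 lymphatic markers were detected in their class in each library, and of the 10 blood endothelial markers only Ackr1 was at 0, in NP.

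The cytosolic side was higher in dpc16 in each class as well as over all cells. Summed cytosolic levels were 8194, 19220.4 and 9180.4 CPM in keratinocyte-like cells, a dpc16 to NP ratio of 2.35 (2.32 to 2.37). In fibroblast-like cells they were 7299, 14235 and 6501 CPM, a ratio of 1.95 (1.86 to 2.04), and in sebocyte-like cells 9037, 14835 and 8347 CPM, a ratio of 1.64 (1.598 to 1.69). Blood endothelial-like cells gave 8418, 13466 and 10100.1 CPM with a ratio of 1.5996 (1.499 to 1.71), and lymphatic endothelial-like cells 6680.4, 14858 and 8689 CPM with a ratio of 2.22 (2.02 to 2.45). Counting also 4 classes of 5 to 12 NP cells, the ratio was above 1.5 with an interval above 1 in 9 of 9 classes, the highest being 3.42 (3.06 to 3.83) in Langerhans and dendritic-like cells (12 cells in NP and 76 in dpc16). The 4 clusters left without a name gave 2.11 (2.05 to 2.16), with 12 of 15 cytosolic members higher beside 6.54% of genes.

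Member counts within classes gave the same picture. The number of cytosolic members higher in dpc16 than in NP was 10 of 15 in keratinocyte-like cells, where 9.92% of measured genes were higher. It was 9 in fibroblast-like cells (6.18% of genes), 6 in sebocyte-like cells (6.47%), 6 in blood endothelial-like cells (5.83%) and 5 in lymphatic endothelial-like cells (4.59%). Lower cytosolic members were Dnajb4 in fibroblast-like cells, where 15.9% of genes were lower, and Hspd1 in lymphatic endothelial-like cells, where 6.06% were. Hspa8, Hsp90aa1 and Hspb1 were higher in 5 of 5 classes. Hspa1a, Hsph1 and Dnajb1 were higher in 4. Hspe1 was higher in 3, Dnaja1 in keratinocyte-like and fibroblast-like cells, Hspa1b in keratinocyte-like cells (1.59 (1.52 to 1.68)), and Hsp90ab1 in none, with ratios of 1.25 to 1.47. With the clusters of a class weighted equally, log2 ratios short of the fold were 0.39 for Hspa1b and 0.45 for Hspe1 in keratinocyte-like cells and 0.51 for Dnaja1 in fibroblast-like cells.

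**Figure D2:**
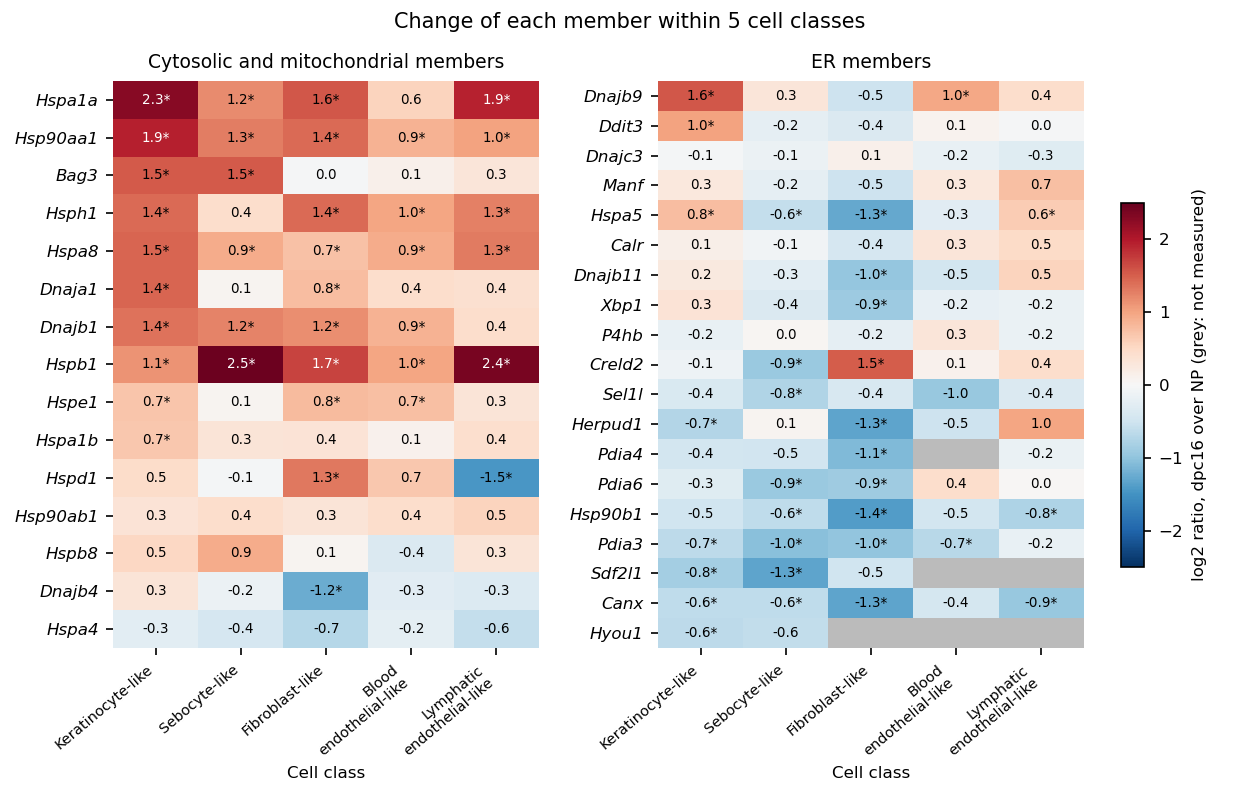
log2 ratio of dpc16 over NP for each member (rows) in 5 cell classes (columns), red for higher and blue for lower in dpc16, with a star where the ratio was at least 1.5 either way and its interval excluded 1, and grey where a member was not measured. Stars in the cytosolic panel are red except for Dnajb4 in fibroblast-like cells (-1.23) and Hspd1 in lymphatic endothelial-like cells (-1.45), while the fibroblast-like column of the ER panel is mostly blue.

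The size of the shift was not the same in each class. Hspa1a stood at 705, 3424 and 1089 CPM in keratinocyte-like cells, a ratio of 4.86 (4.68 to 5.05). In fibroblast-like cells it stood at 1387, 4075 and 1383 CPM, a ratio of 2.94 (2.65 to 3.26). In sebocyte-like cells it stood at 1130.4, 2577 and 1149 CPM, a ratio of 2.28 (2.12 to 2.46), and in lymphatic endothelial-like cells at 959, 3648 and 1201 CPM, a ratio of 3.81 (2.97 to 4.96). In blood endothelial-like cells it stood at 1422, 2101 and 1544 CPM, and the ratio of 1.48 (1.26 to 1.74) did not pass the fold. Of the 5 classes, keratinocyte-like cells had the lowest NP level and the largest ratio, and blood endothelial-like cells the lowest dpc16 level and the smallest ratio.

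Hsp90aa1 had its largest ratio, 3.85 (3.68 to 4.02), in keratinocyte-like cells (549, 2110.1 and 699 CPM) and its smallest, 1.84 (1.46 to 2.34), in blood endothelial-like cells (669.8, 1229.7 and 871 CPM). Its levels were 782, 1894 and 601 CPM in sebocyte-like, 780.2, 2085 and 586 CPM in fibroblast-like and 809, 1639 and 706 CPM in lymphatic endothelial-like cells. With the clusters of each class weighted equally, its log2 ratio was 1.51 in keratinocyte-like cells and larger, 1.66, in fibroblast-like cells. Hspb1 ran differently. It was highest in keratinocyte-like cells, at 2499.5, 5423 and 2534 CPM, where its ratio was 2.17 (2.12 to 2.22). Its smallest ratio was in blood endothelial-like cells (log2 ratio 0.99). In sebocyte-like and lymphatic endothelial-like cells its level was lower than in keratinocyte-like cells and its ratio larger. The ratio was 5.51 (4.66 to 6.57) in sebocyte-like cells (209, 1154 and 117 CPM) and 5.26 (3.73 to 7.67) in lymphatic endothelial-like cells (494, 2601 and 831 CPM). Whether RNA from keratinocytes in the droplets had a part in these low levels was not tested. The keratinocyte gene Krt14 was present in fibroblast-like cells at 11.0%, 8.75% and 14.4% of its keratinocyte-like level in NP, dpc16 and dpp42. That share was not computed for sebocyte-like or lymphatic endothelial-like cells.

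Bag3 was class-dependent. It stood at 41.7, 121 and 50.5 CPM in keratinocyte-like and 41.0, 119.8 and 42.8 CPM in sebocyte-like cells, with ratios of 2.91 (2.47 to 3.43) and 2.92 (1.98 to 4.47). In fibroblast-like cells it stood at 181, 180.0 and 141 CPM, a ratio of 0.994 (0.745 to 1.35), and in blood endothelial-like cells at 190.2, 212 and 232 CPM, a ratio of 1.11 (0.712 to 1.82). In lymphatic endothelial-like cells it stood at 105, 138 and 132 CPM, a ratio of 1.32 (0.618 to 3.37). Its NP level was thus higher in the 3 classes where it was not called. Dnajb4 stood at 263, 112 and 79.3 CPM in fibroblast-like cells and was lower both in dpc16, at 0.428 (0.333 to 0.556), and in dpp42, at 0.302 (0.180 to 0.489). Hspa4 had ratios of 0.628 to 0.891 over the 5 classes, and Hspb8 of 0.826 to 2.06, with no call for either. Hspa4 was below 1 in 5 of 5 classes.

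On the ER side the sum was level in some classes and lower in others. Summed ER levels were 2129.8, 2159 and 1746 CPM in keratinocyte-like cells, a dpc16 to NP ratio of 1.01 (0.988 to 1.04). In fibroblast-like cells they were 5639, 3036 and 4297 CPM, a ratio of 0.538 (0.511 to 0.568), so the class with the highest NP level was the one that fell most among the 5. Sebocyte-like cells had 4509.9, 3228 and 4102 CPM, a ratio of 0.716 (0.687 to 0.746). In blood endothelial-like cells the ratio was 0.913 (0.825 to 1.01) and in lymphatic endothelial-like cells 0.992 (0.861 to 1.15), both with 1 inside the interval. In fibroblast-like cells 9 of 18 measured ER members were lower and 1 was higher, beside 15.9% and 6.18% of genes, in sebocyte-like cells 8 of 19 lower and 0 higher (11.4% of genes were lower there), and in keratinocyte-like cells 5 of 19 lower and 3 higher (21.6% of genes were lower and 9.92% higher). The sebocyte-like value depends on the cells kept: with at most 5% mitochondrial UMIs 2 ER members were lower and the median log2 ratio went from -0.47 to 0.13, and with cells thinned to 1000 UMIs 3 were lower. Blood endothelial-like cells had 1 of 16 higher and 1 lower, where 5.83% of genes were higher and 10.3% lower, and lymphatic endothelial-like cells 1 of 17 higher and 2 lower, where 4.59% were higher and 6.06% lower. The median log2 ratio of ER members in fibroblast-like cells was -0.70, beside -0.30 for all measured genes of the class. In keratinocyte-like cells it was -0.18 beside -0.16.

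Hspa5 was split by class. It stood at 319, 544 and 273 CPM in keratinocyte-like cells, higher in dpc16 with a ratio of 1.70 (1.602 to 1.81). In fibroblast-like cells it stood at 1249.8, 515 and 728 CPM, at 0.412 (0.368 to 0.463) of its NP level, and in sebocyte-like cells at 785, 516 and 667 CPM, at 0.658 (0.595 to 0.728). In lymphatic endothelial-like cells it stood at 329.5, 519.6 and 719 CPM and was higher with 1.58 (1.03 to 2.55), on 19 NP cells. In blood endothelial-like cells it stood at 1042, 857 and 1038 CPM, and its ratio of 0.822 (0.676 to 1.01) was called in neither direction. With the clusters of each class weighted equally, the log2 ratio was 0.27 in keratinocyte-like and -0.22 in sebocyte-like cells, both short of the fold, and -1.10 in fibroblast-like cells. The difference between classes was not tested. Hsp90b1 stood at 991, 378 and 766 CPM in fibroblast-like cells, a ratio of 0.382 (0.335 to 0.435), and was also lower in sebocyte-like (0.649) and lymphatic endothelial-like cells (0.591).

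Canx and Pdia3 fell in most classes. Canx was lower in 4 of 5 classes, from 0.403 (0.329 to 0.498) in fibroblast-like cells (399, 161 and 269 CPM) to 0.647 (0.587 to 0.715) in sebocyte-like cells (829, 537 and 802 CPM). Pdia3, the isomerase that works with the lectin chaperones, was lower in 4 of 5, with 429, 216 and 469 CPM and 0.504 (0.416 to 0.616) in fibroblast-like cells. In keratinocyte-like cells Canx stood at 239, 154 and 201 CPM, in blood endothelial-like cells at 256, 191 and 284 CPM and in lymphatic endothelial-like cells at 434, 229 and 336 CPM. Sdf2l1 was lower in keratinocyte-like and sebocyte-like cells, at 0.556 and 0.403, and Hyou1, measured only in those 2 classes, was lower in keratinocyte-like cells at 0.640, as was Herpud1 at 0.601. Herpud1, Dnajb11, Pdia4, Pdia6 and Xbp1 were lower in fibroblast-like cells, at 0.401, 0.521, 0.472, 0.544 and 0.536. Pdia6, Sel1l and Creld2 were lower in sebocyte-like cells, at 0.526, 0.595 and 0.527. With clusters weighted equally, log2 ratios short of the fold were -0.54 for Pdia3 and -0.53 for Herpud1 in keratinocyte-like cells. In sebocyte-like cells they were -0.49 for Canx, -0.34 for Creld2 and -0.50 for Sel1l.

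Dnajb9 was called higher in keratinocyte-like and blood endothelial-like cells, and Ddit3 in keratinocyte-like cells only. Dnajb9 stood at 36.2, 107 and 33.99 CPM in keratinocyte-like cells, a ratio of 2.95 (2.48 to 3.53) (log2 1.56). In blood endothelial-like cells it stood at 124, 250.1 and 114 CPM, a ratio of 2.02 (1.19 to 3.69). With clusters weighted equally, its log2 ratios were close, at 0.92 in keratinocyte-like, 0.89 in sebocyte-like and 0.80 in blood endothelial-like cells. They were 0.44 in lymphatic endothelial-like and -0.30 in fibroblast-like cells. Ddit3 stood at 37.9, 76.5 and 41.0 CPM in keratinocyte-like cells, a ratio of 2.02 (1.69 to 2.42). Ddit3 stood at 80.5, 69.5 and 63.5 CPM in sebocyte-like and 91.0, 100.4 and 97.9 CPM in blood endothelial-like cells, within the fold. In fibroblast-like cells the ratios were 0.707 (0.495 to 1.04) and 0.788 (0.553 to 1.16), neither called. Creld2 was the 1 ER member higher in fibroblast-like cells, with 11.1, 36.7 and 37.9 CPM and a ratio of 3.31 (1.11 to 16.2), resting on 3 UMIs in NP. Calr, Manf, P4hb and Dnajc3 were called in none of the 5 classes.

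In dpp42 most members lay within the fold of NP in each class. In fibroblast-like cells 5 of 16 measured ER members were lower than in NP and 0 higher, beside 6.95% and 8.81% of all 3757 measured genes. These were Ddit3, Dnajb11, Herpud1, Dnajb9 and Hspa5, at 0.424, 0.450, 0.473, 0.509 and 0.582. The count was 2 with at most 5% mitochondrial UMIs and 1 with thinned cells, and with clusters weighted equally Dnajb9 and Hspa5 had log2 ratios of -0.54 and -0.36, short of the fold. In keratinocyte-like cells 4 cytosolic members were higher in dpp42 than in NP, beside 4.88% of genes: Hspa1b by 1.63, Hspa1a by 1.55, Dnaja1 by 1.54 and Hsph1 by 1.52. That count was 0 with the clusters of the class weighted equally, 1 at Leiden resolution 2 and 1 with each cell's class taken from its own markers. Sdf2l1 and Hyou1 were the 2 ER members lower there, at 0.428 and 0.537, beside 2.84% of genes. Sebocyte-like cells had Hspb1 and Sdf2l1 lower, at 0.557 and 0.345, beside 1.92% of genes. Blood endothelial-like cells had Dnaja1 and Hspa1b higher, at 1.86 and 1.56, beside 2.6% of genes. In lymphatic endothelial-like cells Hspa8, Hspa5 and Hspb1 were higher, at 2.30, 2.18 and 1.68, beside 4.96% of genes, and Dnajb1 was lower, at 0.541, beside 3.08%. No member was higher in sebocyte-like cells (3.35% of genes were) or lower in blood endothelial-like cells (3.34%). In the 4 unnamed clusters pooled Hspb1 and Calr were lower, at 0.520 and 0.599, and 0 members higher, beside 4.32% and 2.71% of genes.

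Set against dpc16 instead, some cytosolic members were lower in dpp42 in each class, and ER members were called in both directions. In keratinocyte-like cells 10 of 15 cytosolic members were lower, where 9.34% of genes were, and 5 of 18 ER members, Hspa5, Dnajb9, Calr, Manf and Ddit3, were lower too. There, 0 ER members were higher, beside 22.5% of genes. In fibroblast-like cells 9 cytosolic members were lower, where 4.73% of genes were, and 5 of 19 ER members were higher, where 20.4% of genes were. These 5 were Hsp90b1, Canx, Pdia3, Pdia6 and Sel1l, at 2.02, 1.67, 2.17, 1.64 and 2.32. Another ER member was lower, and the ER median log2 ratio of 0.35 lay below the 0.50 for all measured genes of the class. In sebocyte-like cells the ER median was 0.32 beside 0.17. In sebocyte-like cells 7 cytosolic members were lower (6.52% of genes) and 5 of 18 ER members higher (14.8% of genes), with Pdia3, Pdia6 and Sel1l again among them. Blood endothelial-like cells had 4 cytosolic members lower (8.62% of genes), Hsph1, Hspb1, Dnajb1 and Hspe1, and lymphatic endothelial-like cells 6 (7.03% of genes), while Sel1l was higher in the latter (9.99% of genes). Of the ER members, 1 of 16 was higher and 2 lower in blood endothelial-like cells (13.2% and 8.62% of genes). In lymphatic endothelial-like cells 1 of 17 was lower. The unnamed clusters had 11 cytosolic and 4 ER members lower, beside 8.13% of genes.

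Single clusters with at least 15 cells in each library gave a finer view, in 17 clusters. The median log2 ratio of cytosolic members between dpc16 and NP was above 0 in 17 of 17, from 0.21 to 1.47, while the all-gene medians ran from -0.37 to 0.17. The ER medians ran from -0.90 to 0.44. They were above 0 in 5 of 17 clusters and above the all-gene median of their own cluster in 8 of 17, against 17 of 17 for the cytosolic medians. Hspa8 and Hsp90aa1 were higher in 16 clusters, and Hspa1a, Hspb1 and Dnajb1 in 15. Canx and Pdia3 were lower in 10 clusters each, and their log2 ratios were below 0 in 17 of 17. The all-gene median was itself below 0 in each cluster except cluster 18, where it was 0.17. Shares of all genes called in single clusters are not given here, so these cluster counts have no such reference.

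**Figure D3:**
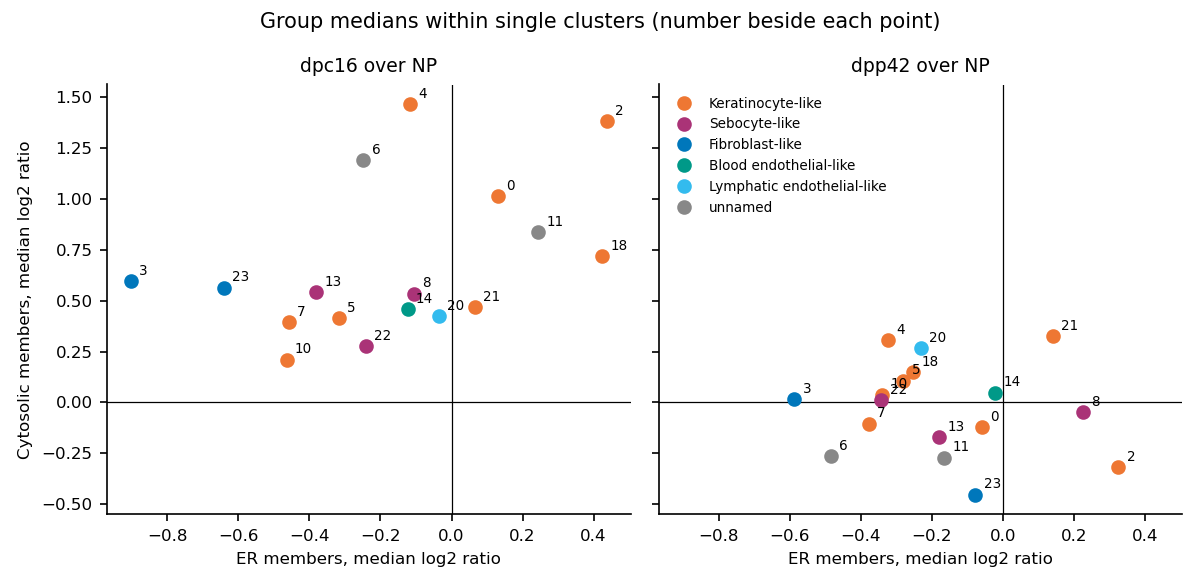
Median log2 ratio of cytosolic members (vertical) against that of ER members (horizontal) in each of 17 clusters, coloured by class, for dpc16 over NP on the left and dpp42 over NP on the right, with lines at 0. On the left the points lie above 0, from 0.21 to 1.47, and spread from -0.90 to 0.44 across, and on the right they lie around 0 on the vertical axis.

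Within the keratinocyte-like class the shift differed in size between clusters, a difference that was not tested. Summed cytosolic levels in cluster 0, led by Postn, Wfdc3 and Ptn, were 10601, 33654 and 9348 CPM in NP, dpc16 and dpp42. In cluster 18, led by Nppc, Lgr5 and Sgk1, of which Lgr5 marks hair follicle stem cells, they were 15488, 38772 and 17478 CPM. In cluster 10, led by the cornified-layer genes Lor, Wfdc21 and Flg2, they were 8493, 10019 and 8604 CPM. In cluster 7, led by Mt4, Krt1 and Hpgds, of which Krt1 marks keratinocytes that have left the basal layer, they were 5795, 9455 and 6045 CPM. The cluster medians were largest in cluster 4, led by Top2a, Ube2c and Cenpa, at 1.47. Cluster 2, led by Defb6, Cst6 and Krt79, followed at 1.38. They were 1.01 in cluster 0, 0.72 in cluster 18, 0.47 in cluster 21, 0.41 in cluster 5, 0.39 in cluster 7 and 0.21 in cluster 10.

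Fibroblast-like clusters compared one at a time showed both directions. Cluster 3, led by the cytokine-linked genes Ccl2, Ccl7 and Tnfaip6, had cytosolic levels of 7429, 14869 and 8077 CPM and ER levels of 6376, 3280.2 and 4489 CPM. Cluster 23, led by the kallikrein genes Klk1b24, Klk1b21 and Klk1, had cytosolic levels of 6279.9, 10729 and 4338 CPM and ER levels of 5191, 2565 and 4253 CPM. In both, the cytosolic sum was highest and the ER sum lowest in dpc16. ER medians were -0.90 and -0.64, beside -0.19 and -0.37 for all genes of those clusters.

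Per cell, the libraries differed at the median and more at the upper end. After thinning each cell to 1000 UMIs, the median cell held 6, 13 and 7 cytosolic member UMIs in NP, dpc16 and dpp42, and the 90th percentile was 15, 42 and 17. At least 30 such UMIs were found in 3.03%, 17.8% and 2.59% of cells. The median for ER members was 2 in each library. In keratinocyte-like cells the medians of cytosolic UMIs were 6, 15 and 6, in fibroblast-like cells 5, 10 and 3. A Hspa1a UMI was found in 39.3% of thinned cells in NP (exact interval 36.6% to 41.98%), in 74.8% in dpc16 (73.3% to 76.2%) and in 44.96% in dpp42 (41.96% to 47.98%). For Hspa5 the shares were 31.3%, 37.2% and 31.5%. Unthinned, they were 65.3%, 94.7% and 71.9% for Hspa1a and 62.5%, 76.8% and 62.7% for Hspa5.

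**Figure D4:**
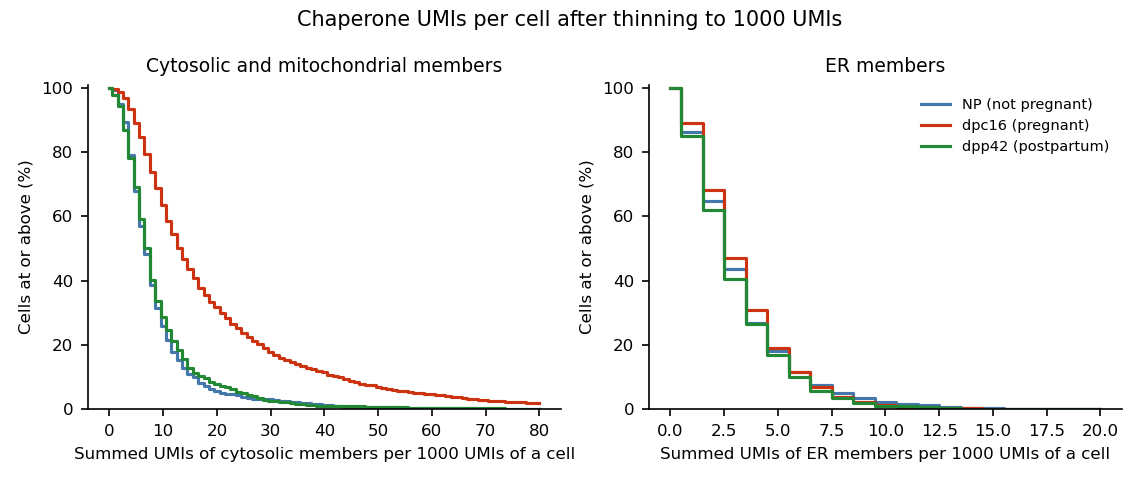
Share of cells (vertical, percent) holding at least a given number of member UMIs (horizontal) after each cell was thinned to 1000 UMIs, for cytosolic members on the left and ER members on the right, 1 line per library. At 30 cytosolic UMIs the dpc16 line is at 17.8% and the NP and dpp42 lines at 3.03% and 2.59%, while the ER lines lie close together.

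Depth per cell differed between the libraries, and so did immediate early genes, the latter not in the same way in each class. In cells of 3500 to 5000 UMIs, cytosolic levels were 8224, 18005 and 9828 CPM and ER levels 2842, 2826 and 2401. In keratinocyte-like dpc16 cells the cytosolic level was 28018 CPM at 2500 to 3500 UMIs and 14914 above 8000 UMIs, where NP lay between 7340 and 9225 over its depth bins. By mitochondrial share it was 18508 CPM under 2% and 27665 at 8% to 10%. Left-out barcodes over the mitochondrial limit held 5361, 17303 and 6524 CPM of cytosolic members. Immediate early and dissociation-linked genes, a list of 23, had 9 higher and 0 lower genes between dpc16 and NP over all cells (14.6% and 21.2% of all genes), and 16 higher and 0 lower in keratinocyte-like cells (9.92% and 21.6%). Over all cells Ier3, Klf2 and Rhob led at 2.43, 2.41 and 2.06, while Fos and Fosb lay at 1.04 and 0.967, called in neither direction. In fibroblast-like cells they had 4 higher and 4 lower (6.18% and 15.9% of all genes). Their summed level was highest in dpp42 in blood endothelial-like cells (15050.5, 14694 and 18764 CPM in NP, dpc16 and dpp42) and lymphatic endothelial-like cells (14080, 16507 and 22722 CPM). In the latter, 11 of 21 were higher and 0 lower in dpp42 than in NP (4.96% and 3.08% of all genes). The part of immediate early genes in the chaperone values was not tested, and the sources used here do not say whether the 3 skins were digested on the same day.

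**Figure D5:**
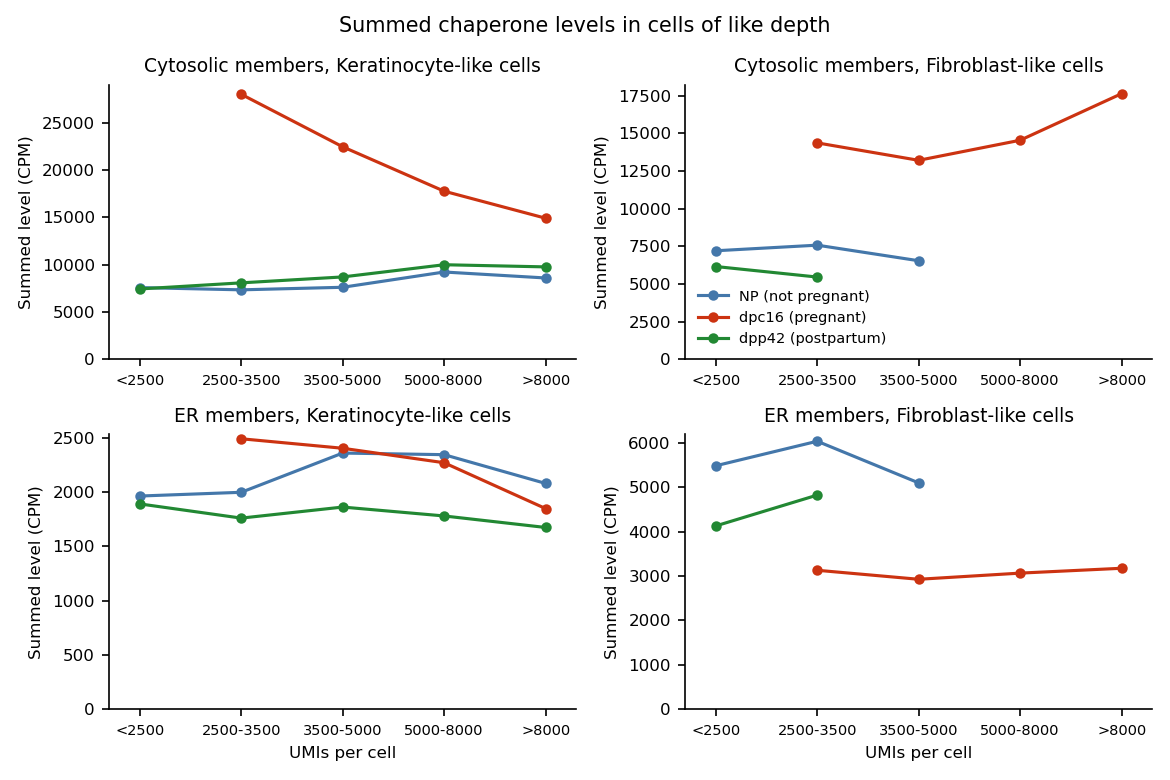
Summed level in CPM of cytosolic (top) and ER members (bottom) in keratinocyte-like (left) and fibroblast-like cells (right), against UMIs per cell in 5 bins, 1 line per library, with bins of too few cells left out. Cytosolic dpc16 levels lie above those of NP and dpp42 in each bin that both fill, falling from 28018 to 14914 with depth in keratinocyte-like cells, and fibroblast-like ER levels in dpc16 lie below both.

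Genes of the same pathways outside the 34 were read from lists. Of 41 measured cytosolic and mitochondrial proteostasis genes, 8 were higher and 3 lower in dpc16 than in NP, beside 14.6% higher and 21.2% lower of all genes, with a median log2 ratio of 0.11. Among the highest were the small heat shock protein Cryab at 4.29 (3.73 to 4.96) and the cochaperone Bag2 at 2.03 (1.47 to 2.88). The lowest were heat shock factor Hsf2 at 0.325 (0.274 to 0.387), Hspbp1 at 0.654 and Dnajb2 at 0.660. Of 61 measured ER stress and secretory folding genes, 12 were higher and 3 lower, beside the same 14.6% and 21.2%, with a median of 0.23. The retrieval receptor gene Kdelr3 and the ER prolyl isomerase genes Fkbp10 and Fkbp7 led at 5.98, 5.18 and 4.03, in a library with 25105 against 3356 CPM of fibroblast markers, and Mogs, Rpn1 and Sec61g were lowest at 0.556, 0.619 and 0.658.

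In keratinocyte-like cells the ER list had 6 higher and 4 lower of 56, beside 9.92% and 21.6% of all genes, with a median of -0.02 beside -0.16 for all genes. The highest were Ppp1r15a at 2.12 (1.94 to 2.32), Atf4 at 1.85 (1.71 to 2.002) and the collagen chaperone Serpinh1 at 1.76 (1.51 to 2.05). Summed fibroblast markers in these keratinocyte-like cells stood at 147 CPM in NP and 829 in dpc16, and Col1a1 at 18.5 and 180 CPM. Whether fibroblast RNA in the droplets had a part in the Serpinh1 ratio was not tested. Ppp1r15a and Atf4 belong, like Ddit3, to the PERK branch. In fibroblast-like cells it had 4 higher and 13 lower of 65, beside 6.18% and 15.9%, with a median of -0.31 beside -0.30 for all genes. In blood endothelial-like cells it had 5 higher and 1 lower of 44, beside 5.83% and 10.3%, with a median of 0.09 beside -0.14. The proteostasis list had 10 higher and 2 lower of 40 in keratinocyte-like cells, led by Cryab at 5.02 (4.17 to 6.09), Fkbp5 at 3.72 (2.58 to 5.53) and Dnaja4 at 2.88 (2.48 to 3.37), and 4 higher and 4 lower of 40 in fibroblast-like cells. Between dpp42 and NP over all cells, 7.61% of all genes were higher and 2.66% lower. Beside that, 1 proteostasis gene was higher (Hspa2, 1.605) and 1 lower (Hspbp1, 0.590) of 40. In the same comparison 0 of 57 ER list genes were called, and 1 of 23 immediate early genes was higher (Klf2, 1.53). Next to these lay Fkbp5 at 1.48 and Cryab at 1.43 in the proteostasis list and Dnajc10 at 1.34 and Asns at 0.745 at the ends of the ER list, none called.

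The calls were also read by promoter motif, with no test. Over all cells, 6 of the 8 cytosolic genes with an inverted unit pair were higher in dpc16, with log2 ratios from 0.10 to 2.02. Of the 4 without one, Bag3 and Dnajb1 were higher and Hspa4 and Hspb8 were not, from -0.39 to 1.503. The medians over all cells were 0.70 with the pair and 0.57 without it, where 14.6% of all measured genes were higher. In keratinocyte-like cells, 6 of the 8 with the pair and 2 of the 4 without it were higher. Their medians were 0.91 and 0.94, and 9.92% of genes were higher there. In fibroblast-like cells, 6 of the 8 cytosolic genes with the pair were higher and 1 lower (median log2 ratio 1.06). Of the 4 without it, 1 was higher (median 0.03), where 6.18% of genes were higher and 15.9% lower. There, 4 of the 7 ER genes with an ER stress element were lower and 1 higher, against 5 lower and 0 higher of the 10 without it. For all cells, 1 of the 7 was lower and 0 higher, against 0 lower and 2 higher of the 10. Their medians were 0.09 and 0.02, where 21.2% of genes were lower and 14.6% higher. For keratinocyte-like cells, 1 of the 7 was lower and 1 higher, against 3 lower and 2 higher of the 10. Medians there were -0.13 and -0.28, where 21.6% of genes were lower and 9.92% higher. Canx, with an element, was lower in 4 classes, and Dnajb9, without one in this window, was the ER member with the highest ratio.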

How the data were processed

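The authors deposited whole-number UMI counts per gene and barcode for 3 droplet libraries, and Cell Ranger 2.2.0 is named in the submitters' processing notes, with mm10 as the build. How reads that match several genes were counted is not given in the sources used here. From the deposited counts, barcodes with at least 200 genes and at most 10% mitochondrial UMIs were kept, which left 5905715, 19711100 and 5432269 UMIs in NP, dpc16 and dpp42. No doublet caller was run, so doublets remain.

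Cells were clustered with scanpy 1.11.5 and igraph 0.11.9 in Python 3.11.15 (2000 variable genes, 30 components, 15 neighbours, Leiden resolution 1, seed 0). The 34 members, the pathway lists and the immediate early genes were kept out of the variable genes. Of 30 clusters, 26 were named from 18 marker lists when at least 3 markers were enriched more than 1.4-fold and no other list led the 10 top genes.

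UMIs were summed per library and class and divided by that sum's total to give counts per 1000000 (CPM). Intervals are exact at 95%, Poisson or conditional binomial for levels and ratios and Clopper-Pearson for shares. They cover counting error only. log2 ratios had 0.5 UMIs added. Named were the 34 members, with class values mainly for the 3 highest and 3 lowest ratios of each group, and genes at the ends of each pathway list, of which 1 is not reported here. The members and lists were chosen with earlier results of these data known. The steps were tested on simulated counts. Alternatives were another mitochondrial limit, scaling to the median gene, thinning, equal weight for classes, a 2-fold rule, other class definitions and, chosen after seeing the data, cells of like depth.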

Additional observations from a re-analysis of the deposited data

Results flagged for a closer look

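Several genes were called in opposite directions in different classes. None of these differences between classes was tested, since each class has 1 library per state. Hspa5, the ER's Hsp70, had log2 ratios of dpc16 over NP of 0.77 in keratinocyte-like and 0.63 in lymphatic endothelial-like cells, but -0.61 in sebocyte-like and -1.28 in fibroblast-like cells. With the clusters of each class weighted equally these were 0.27 in keratinocyte-like and -0.22 in sebocyte-like cells, both short of the fold. For dpp42 over NP its log2 ratio was -0.78 in fibroblast-like and 1.10 in lymphatic endothelial-like cells. The mitochondrial chaperonin Hspd1 had 1.32 in fibroblast-like and -1.45 in lymphatic endothelial-like cells for dpc16 over NP. The former was 0.75 with clusters weighted equally, and the latter rests on 19 NP cells. Creld2, a stress-induced ER gene, had -0.93 in sebocyte-like and 1.51 in fibroblast-like cells, the latter on 3 NP UMIs, and -0.34 in sebocyte-like cells with clusters weighted equally. The small heat shock gene Hspb1 had -0.84 in sebocyte-like and 0.73 in lymphatic endothelial-like cells for dpp42 over NP, and -0.34 in sebocyte-like cells with clusters weighted equally. Among barcodes left out for their mitochondrial share, cytosolic members summed to 17303 CPM in dpc16 against 5361 in NP, so cells that entered no comparison showed the same order of libraries.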

How the results depend on the processing

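No paired analysis was possible because each state has 1 library. For dpc16 over NP, the cytosolic median over all cells lay between 0.46 and 1.05 over the alternatives and the ER median between -0.33 and 0.27, and the cytosolic minus ER difference stayed above 0 in each class that could be compared. Of 176 class and whole-library medians, 167 moved by less than the set limit, as did 83 of 108 counts and 69 of 96 single-gene ratios, while all 12 shares moved. Shares of all measured genes were not computed for the counts that follow, and equal weighting called by the size of the ratio alone. With classes weighted equally, 6 cytosolic members were higher, ER members were 1 higher and 4 lower (dpc16 over NP), cytosolic 0 higher and ER 2 lower (dpp42 over NP), and ER 1 higher and 1 lower with a median of 0.14 (dpp42 over dpc16), while Hyou1 turned from -0.72 to 0.044. With a 2-fold rule, ER members were 1 higher and 0 lower (dpc16 over NP), cytosolic 0 higher (dpp42 over NP) and ER 1 lower (dpp42 over dpc16). Scaled to the median gene, the same counts were 0 ER lower, 0 cytosolic higher and 6 ER lower. With at most 5% mitochondrial UMIs, 2 cytosolic members were higher (dpp42 over NP) and 5 ER lower (dpp42 over dpc16). In sebocyte-like cells the ER median then reversed from -0.47 to 0.13 (dpc16 over NP), the cytosolic median for dpp42 over NP was 0.26 and the difference 0.50. Thinned, ER members were 2 lower (dpp42 over NP) and 1 higher and 5 lower (dpp42 over dpc16), and medians were -0.29 (sebocyte-like ER, dpp42 over NP), -0.43 (fibroblast-like cytosolic, dpp42 over NP) and -0.52 (lymphatic ER, dpc16 over NP). That fibroblast-like median was -0.42 with stress genes in the clustering and -0.46 by each cell's own markers. In cells of 3500 to 5000 UMIs, 2 cytosolic members were lower and 1 ER lower (dpc16 over NP), 5 cytosolic higher, 1 ER higher and 2 lower (dpp42 over NP), and 1 cytosolic higher (dpp42 over dpc16). In cells of 2500 to 5000 UMIs the keratinocyte-like cytosolic median was 1.58. Shares with a Hspa1a UMI in NP, dpc16 and dpp42 were 65.3%, 94.7% and 71.9% unthinned and 52.2%, 85.6% and 60.3% at 2000 UMIs, and with a Hspa5 UMI 62.5%, 76.8% and 62.7%, and 46.3%, 56.4% and 46.8%. The causes of these moves were not tested. With at most 5% mitochondrial UMIs, lymphatic endothelial-like NP cells were too few to compare.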
